A study of Mus musculus with 6 samples.

Results

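The Dlk1-Dio3 cluster is a run of imprinted miRNA genes on mouse chromosome 12. Its members were chosen by miRNA number from the names of the deposited assays, whatever the arm, the species prefix or the card, and names ending in # were left out. The rule found 76 of the 750 miRNA assays. They stand for 44 miRNA numbers, since some miRNAs have an assay for each arm or on both cards. Of the 76 assays, 62 carry a mouse name, 8 a rat name and 6 a human name.

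The study compared mouse blastocysts after vitrification, in 3 pools (V1 to V3), with fresh blastocysts, also in 3 pools (F1 to F3). All embryos came from superovulated and mated Kunming mice, with no genetic change given in the labels, and were kept in CZB medium. Embryos of the vitrified group spent 30 s in 10% EG and 10% DMSO, were drawn into an open pulled straw with the EDFS30 solution for 25 s, went into liquid nitrogen, and were thawed in 0.5 M sucrose for 5 min. From each pool, 30 ng of total RNA was reverse transcribed, pre-amplified and measured by real-time PCR on TaqMan rodent miRNA cards A and B. Each pool mixes many embryos and all their cells, so that fewer cells of a type and less RNA per cell cannot be told apart.

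In the mouse, the Dlk1-Dio3 region expresses Dlk1, Rtl1 and Dio3 from the paternal chromosome and a series of non-coding transcripts, Meg3 (Gtl2), Rian and Mirg, from the maternal one. The miRNAs are cut from the maternal transcripts. Those on the strand opposite Rtl1, among them miR-127 and miR-136, are fully complementary to the Rtl1 mRNA and direct its cleavage, and Rtl1 itself is needed for the fetal vessels of the placenta. The miRNAs within Mirg are abundant in brain and placenta, and expression from the maternal transcripts is known as a mark of fully competent mouse pluripotent stem cells.

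RefSeq mature sequences (build GRCm38.p6) were found for 75 of the 76 assays. The 90 mature sequences of these miRNA numbers lie between chr12:109563710-109563731 (miR-770-5p) and chr12:109743764-109743784 (miR-410-3p), a span of 180.1 kb. Of their 47 hairpin genes, 46 lie on the plus strand. The names of 48 matched assays do not give the arm, so both RefSeq arms are shown for those. The following sequences belong to the miRNAs whose values are described most fully. The seed, bases 2 to 8, is in capitals.
The miRNAs opposite Rtl1, which include the lowest Ct of the cluster and both arms of 1 hairpin:
miR-127-5p: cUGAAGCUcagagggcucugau
miR-127-3p: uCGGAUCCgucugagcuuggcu
miR-434-5p: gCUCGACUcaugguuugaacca
miR-434-3p: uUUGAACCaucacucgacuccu
miR-136-5p: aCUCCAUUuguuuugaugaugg
miR-136-3p: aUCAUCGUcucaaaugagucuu
The arms of miR-337, on the Meg3 side, which had assays of their own:
miR-337-5p: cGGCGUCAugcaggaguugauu
miR-337-3p: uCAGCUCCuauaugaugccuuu
The miRNAs of the Mirg segment with the most complete values or the smallest p-values:
miR-379-5p: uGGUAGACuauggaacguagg
miR-379-3p: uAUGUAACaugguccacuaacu
miR-411-5p: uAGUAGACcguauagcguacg
miR-411-3p: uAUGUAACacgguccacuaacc
miR-329-5p: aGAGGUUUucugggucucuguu
miR-329-3p: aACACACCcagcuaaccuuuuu
miR-494-5p: aGGUUGUCcguguugucuucuc
miR-494-3p: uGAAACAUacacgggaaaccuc
miR-667-5p: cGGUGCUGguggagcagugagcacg
miR-667-3p: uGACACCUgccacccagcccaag
miR-134-5p: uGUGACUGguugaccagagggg
miR-134-3p: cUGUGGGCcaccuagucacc
miR-410-5p: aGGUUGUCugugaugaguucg
miR-410-3p: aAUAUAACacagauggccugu

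The 90 sequences carried 86 different seeds. The seed AUGUAAC was shared by miR-379-3p and miR-411-3p, GGUUGUC by miR-410-5p and miR-494-5p, AUGUGGG by miR-299a-3p and miR-299b-3p, and UGGAUAU by miR-376b-5p and miR-376c-5p. All other seeds occurred once among these 90 sequences. The seed of miR-329-3p, ACACACC, also occurs in miR-362-3p, outside the cluster.

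Every result below rests on the threshold cycle (Ct), the PCR cycle at which the signal of a well crosses a set level. One cycle more stands for about a halving of template, and a well with no Ct under 40 cycles counted as undetermined. V1 and F1 stood apart from the other pools. Of the 750 miRNA assays, a Ct was determined for 29.1% in V1 and 18.7% in F1, against 50.9% to 54.5% in each of V2, V3, F2 and F3. The miR-290 to miR-295 family, which marks early mouse embryos and pluripotent cells, had 16 assays, of which none was determined in V1 or F1, while 8 to 10 were determined in each of the other pools. The main counts and medians of the group comparison are therefore given for all pools and for the pools numbered 2 and 3.

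Members of the cluster were determined in vitrified and fresh pools in nearly the same numbers, at a share that lay below that of all miRNA assays in each pool. V1, V2 and V3 had a Ct for 13, 29 and 33 of the 76 assays, and F1, F2 and F3 for 7, 29 and 32. V2 and F2 were equal, V3 and F3 differed by 1 assay, and both pools numbered 1 were low. With a limit of 35 cycles, 24 assays remained in V2, 28 in V3, 24 in F2 and 30 in F3, with 9 in V1 and 5 in F1.

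**Figure D1:**
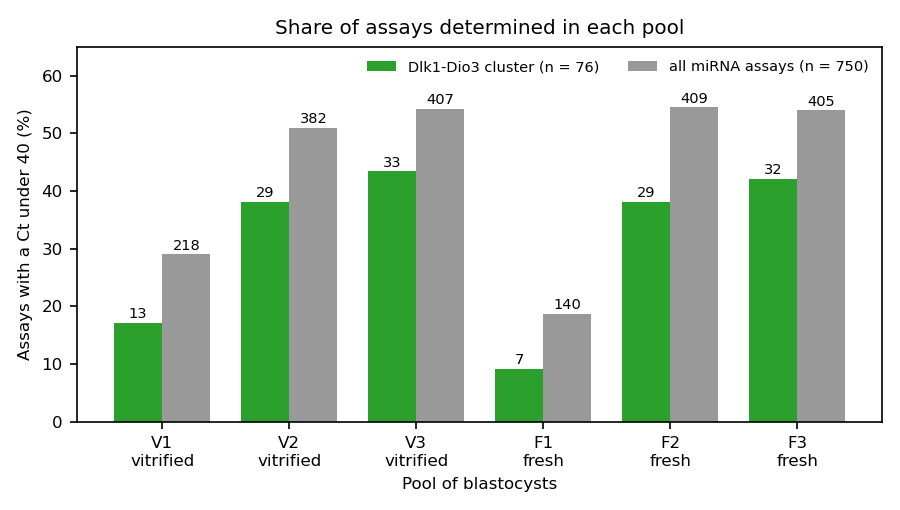
Percentage of assays with a Ct under 40 cycles in each pool, for the 76 assays of the Dlk1-Dio3 cluster (green) and all 750 miRNA assays (grey), with the number of assays above each bar. In every pool the share was lower for the cluster, from 9.21% against 18.7% in F1 to 43.4% against 54.3% in V3.

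In all, 42 of the 76 assays (55.3%) were determined in at least 1 pool, compared with 490 of 750 (65.3%), and 34 were determined in none. All 4 pools numbered 2 and 3 gave a Ct for 22 members (28.9%), compared with 326 of 750 assays (43.5%). In these pools the median Ct of determined wells was 31.9 cycles for the cluster and 29.1 cycles for all miRNA assays. Assay efficiencies are not known, so these Ct values do not rank the miRNAs by amount. Another 9 members were determined in only 1 pool.

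Along the chromosome, values were found in each segment. On the Meg3 side (miR-770, miR-673, miR-493, miR-337, miR-540 and miR-665) 8 of 13 assays were determined in at least 1 pool. Opposite Rtl1 (miR-431, miR-433, miR-127, miR-434 and miR-136) the count was 6 of 9, and in the Mirg segment, from miR-379 to miR-410, it was 27 of 52. On the Rian side, the rule's only miRNA with an assay was miR-370, which had 2 assays, and the one on card A gave a Ct of 38.30 in V1 alone.

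**Figure D2:**
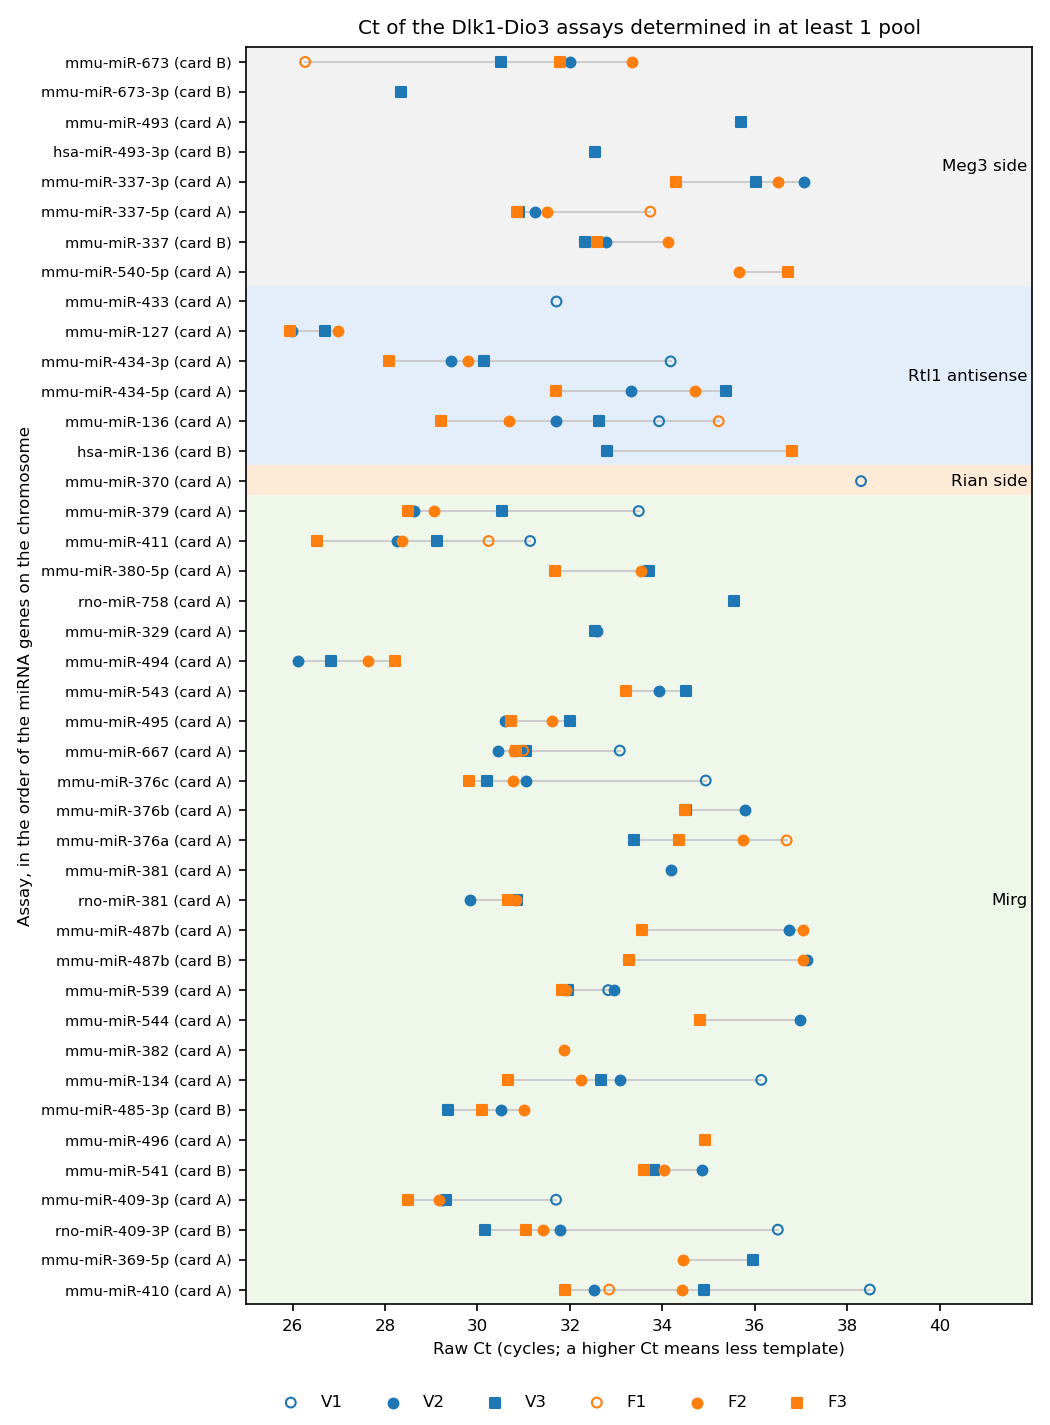
Raw Ct, in cycles, of the 42 members determined in at least 1 pool, in the order of the miRNA genes on the chromosome. Blue marks vitrified and orange fresh pools, open circles are V1 and F1, filled circles V2 and F2, and squares V3 and F3. A grey line joins the pools of an assay, and shading marks the segments of the locus. Most open circles lie to the right of the filled symbols, and the values of V2, V3, F2 and F3 mostly interleave.

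Opposite Rtl1, miR-127 on card A had the lowest Ct of any well of the cluster. Its Ct was 25.98 in V2, 26.69 in V3, 26.98 in F2 and 25.94 in F3, and it was undetermined in V1 and F1. The highest and the lowest of these values were both from fresh pools. A card B assay with the human name miR-127-5p was undetermined in every pool.

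On card A, miR-136 was 1 of only 4 members determined in all 6 pools. Its Ct in V1, V2 and V3 was 33.93, 31.71 and 32.63. In F1, F2 and F3 it was 35.22, 30.69 and 29.20. The fresh pools enclosed the vitrified ones, with F1 above and F2 and F3 below them. In the pools numbered 2 and 3 the groups did not overlap, and the fresh pools held more. A card B assay with the human name miR-136 was determined at 32.81 in V3 and 36.80 in F3. The card A assay minus the card B assay was −0.18 cycles in V3 and −7.60 in F3, so that the 2 assays put V3 and F3 in opposite order.

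The 2 arms of miR-434 were measured side by side on card A. In V1, V2, V3, F2 and F3, the Ct of miR-434-3p was 34.18, 29.43, 30.14, 29.79 and 28.08, and F1 was undetermined. For miR-434-5p it was 33.32 in V2, 35.37 in V3, 34.70 in F2 and 31.71 in F3. The 3p assay was the earlier one in all 4 pools, and the Ct of 3p minus that of 5p was between −5.23 and −3.63 cycles (mean −4.42 ± 0.77 SD, n = 4). Both arms were lowest in F3. Of the other assays of this segment, miR-433 had a Ct (31.71) in V1 only, and miR-431 and miR-433-5p had none.

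On the Meg3 side, miR-337 had the most complete values. The Ct of miR-337-5p was 31.25 in V2, 30.89 in V3, 33.74 in F1, 31.50 in F2 and 30.85 in F3. For miR-337-3p it was 37.07 in V2, 36.03 in V3, 36.51 in F2 and 34.30 in F3. Here the 5p assay was the earlier one in all 4 pools, by 3.45 to 5.83 cycles (mean 4.86 ± 1.0 SD, n = 4), the opposite order to miR-434. The miR-673 assay on card B was at 32.01 in V2, 30.50 in V3, 33.34 in F2 and 31.78 in F3, and at 26.27 in F1, which is −6.29 cycles from the mean of the other fresh pools. The rat-named miR-673 assay on card A was undetermined in every pool.

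In the Mirg segment, miR-411 was determined in all pools. Its Ct in V1, V2 and V3 was 31.14, 28.26 and 29.12, and in F1, F2 and F3 it was 30.24, 28.37 and 26.53. F3 was lowest, V1 and F1 were highest, and the groups overlapped. For its neighbour miR-379, the first gene of the segment, the Ct was 33.49 in V1, 28.62 in V2, 30.52 in V3, 29.06 in F2 and 28.50 in F3, with F1 undetermined. V2, F2 and F3 lay within 1 cycle of each other and V3 was later.

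The other members with a Ct in all 6 pools were miR-667 and miR-410. For miR-667 the Ct was 33.08 in V1, 30.45 in V2, 31.04 in V3, 30.99 in F1, 30.80 in F2 and 30.83 in F3. Its 3 fresh pools lay close together, F1 included. For miR-410, the last gene of the segment, the Ct was 38.49 in V1, 32.52 in V2, 34.90 in V3, 32.85 in F1, 34.43 in F2 and 31.89 in F3. V1 was far above the rest, and without it the groups interleaved.

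For miR-494 the vitrified pools held more than the fresh ones wherever it was determined. Its Ct on card A was 26.11 in V2, 26.84 in V3, 27.64 in F2 and 28.21 in F3, undetermined in V1 and F1. A second assay of the same name on card B was undetermined in every pool. At miR-410 the groups overlapped. The 5p arms of miR-410 and miR-494 share a seed and the 3p arms do not, and neither assay name gives the arm measured.

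For miR-134, a miRNA known for its role in neuronal dendrites, the order was the reverse. Its Ct in V1, V2 and V3 was 36.14, 33.09 and 32.67, and in F2 and F3 it was 32.24 and 30.65, with F1 undetermined. Every vitrified pool was later than every fresh pool with a value. At miR-329, which neurons induce with miR-134, a Ct was determined in V2 (32.58) and V3 (32.55) and in no fresh pool. The reverse held for miR-540-5p, of the Meg3 side, with 35.65 in F2 and 36.71 in F3 and no value in a vitrified pool.

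These were the only members with a Ct in at least 2 pools of one group and none of the other. The share of all 750 assays with that pattern was 0.667% towards the vitrified pools and 1.07% towards the fresh pools, which is 5 and 8 assays. An undetermined well gives a bound and not a level, so the main fit gave no fold change for these 2 miRNAs. Only alternatives that fill undetermined wells with a fixed Ct gave one.

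Among the other early assays of the segment, miR-409-3p on card A was at 31.70 in V1, 29.24 in V2, 29.32 in V3, 29.17 in F2 and 28.49 in F3. Its rat-named counterpart on card B gave 36.50 in V1, 31.79 in V2, 30.16 in V3, 31.41 in F2 and 31.05 in F3. The card A assay was earlier in all 5 pools, with a difference from the card B assay between −4.80 and −0.84 cycles. The 2 assays of miR-487b, one on each card, differed by −0.38 to 0.27 cycles over V2, F2 and F3. The mouse-named miR-381 assay was determined only in V2, at 34.19, where the rat-named assay on the same card gave 29.83. In the other pools the rat-named assay was at 30.85 in V3, 30.83 in F2 and 30.67 in F3.

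The remaining early assays were miR-485-3p, on card B, and miR-376c, of a family known for editing of its seed. For miR-485-3p the Ct was 30.51 in V2, 29.36 in V3, 31.00 in F2 and 30.09 in F3. For miR-376c it was 34.94 in V1, 31.04 in V2, 30.21 in V3, 30.76 in F2 and 29.81 in F3. Neither separated the groups by raw Ct. The 3 assays named miR-543 gave values on 1 card only, at 33.93 in V2, 34.52 in V3 and 33.22 in F3.

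The other members had later or fewer values. With a Ct in all of V2, V3, F2 and F3, miR-495 lay between 30.60 and 32.01 in these pools, miR-539 between 31.83 and 32.96, miR-541 between 33.61 and 34.85 and the card B assay of miR-337 between 32.33 and 34.12. By raw Ct the groups overlapped in these assays except at miR-539. There V1 (32.83), V2 (32.96) and V3 (31.96) were all later than F2 (31.91) and F3 (31.83), V3 only slightly. Set against the U6 control, as described below, the groups overlapped at miR-539 as well. With fewer pools, miR-376a was at 33.39 in V3, 36.69 in F1, 35.74 in F2 and 34.36 in F3, and miR-376b at 35.80 in V2, 34.52 in V3 and 34.49 in F3. For miR-380-5p the Ct was 33.71 in V3, 33.53 in F2 and 31.68 in F3. Both miR-369-5p (V3 35.96, F2 34.44) and miR-544 (V2 36.99, F3 34.81) had a value in 1 pool of each group, the fresh one earlier.

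Most of the 9 members with a single determined pool had it in the vitrified group, 4 of them in V3. In V3 these were miR-673-3p (28.34), miR-493 (35.71), the human-named miR-493-3p (32.54) and the rat-named miR-758 (35.55). In the fresh pools they were miR-382 in F2 (31.87) and miR-496 in F3 (34.92). The 34 assays with no value in any pool included every assay of miR-770, miR-665, miR-431, miR-299, miR-323, miR-679, miR-654, miR-666, miR-300, miR-668, miR-154, miR-377 and miR-412. Over all miRNA assays 64 were determined in 1 pool only, and 40 of these pools were vitrified, compared with 7 of 9 for the members.

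V1 and F1 had fewer members with a value, and most of those came late. Of 25 members determined in both V2 and V3, 11 were also determined in V1, with a median Ct 3.26 cycles later. Of 27 determined in both F2 and F3, 7 were also determined in F1, with a median 1.64 cycles later. For all miRNA assays these delays were 4.85 and 4.48 cycles. In F1, miR-667 was later by only 0.18 cycles and miR-410 was 0.31 cycles earlier.

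For the comparison of the groups, each Ct was set against U6, a small nuclear RNA with 4 wells on each card. The value used, ΔCt, was the Ct of the assay minus the mean Ct of the U6 wells of the same card and pool, so a lower ΔCt means more of the miRNA. The log2 fold change was the mean ΔCt of the fresh pools minus that of the vitrified pools. U6 was between 16.5 and 17.8 cycles in every pool on both cards. The test was limma on all miRNA assays with at least 2 determined pools in each group, with Benjamini-Hochberg adjustment over all assays tested. It measures only the spread between these pools, and 3 pools a group limit its precision.

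No member differed between vitrified and fresh blastocysts at an adjusted p under 0.05, and 22 of the 76 could be tested. The share called among all assays tested was 0% by limma, and at an unadjusted p under 0.05 it was 0.299%, with 0 of the 22 members. The smallest p of a member was 0.193 (limma, adjusted p = 0.998). Of the 22 members 7 had a higher and 15 a lower mean in the vitrified pools. The median log2 fold change was −0.65 for the members and −0.05 for all assays tested. With the small RNA controls of the cards in place of U6, or without F1, the order of these medians turned (−0.37 and −0.78, and −0.59 and −0.88). The order also turned with undetermined wells set to 40 cycles (0.70 and 0.55). Single members ranged from −2.0 to 1.72. A p above the threshold does not show that the groups were alike, and the standard errors of the 22 members in this fit were between 0.88 and 2.24 on the log2 scale.

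With the pools numbered 2 and 3 alone, 10 of the 22 members were higher and 12 lower in vitrified pools. Of the 326 assays tested, 161 were higher and 165 lower. The median was −0.14 for the members and −0.02 for all assays tested. None passed the adjusted threshold, and 1 member, miR-494, had an unadjusted p under 0.05, where 4.91% of all assays did. By segment, the median log2 fold change over all pools was 0.09 on the Meg3 side (4 tested), −0.76 opposite Rtl1 (4 tested) and −0.58 in the Mirg segment (14 tested). In the pools numbered 2 and 3 these medians were 0.61, −0.74 and −0.14.

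**Figure D3:**
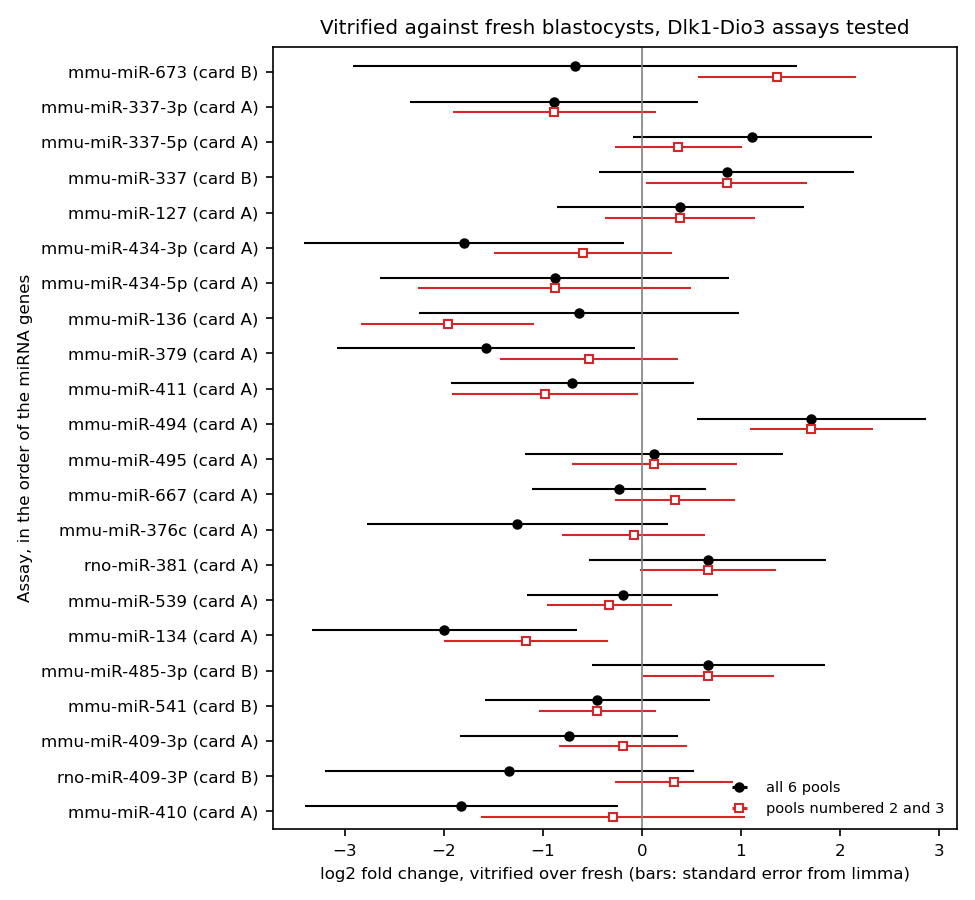
Log2 fold change, vitrified over fresh, of the 22 members tested, in the order of the miRNA genes. Black circles use all 6 pools and open red squares the pools numbered 2 and 3, and bars are standard errors from limma. Most bars cross 0, the miR-494 bar lies above 0 and the miR-134 bar below 0 in both fits, and none passed the adjusted threshold.

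The member with the smallest p was miR-134, with ΔCt values of 18.32, 15.99 and 15.70 in V1, V2 and V3 and 15.65 and 13.70 in F2 and F3. Its log2 fold change was −2.0 (SE 1.34, limma adjusted p = 0.998), and −1.17 without V1. V3 and F2 were nearly equal. The exact 2-sided permutation p was 0.2, where 3 against 2 pools can give 0.1 at the smallest.

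For miR-494, the ΔCt was 9.0 in V2 and 9.87 in V3, below 11.06 in F2 and 11.25 in F3. The log2 fold change was 1.72, with an SE of 1.16 in the fit of all pools and 0.62 in that of the pools numbered 2 and 3. In the latter the unadjusted p was 0.0393 (limma, adjusted p = 0.867). With 2 pools against 2, the exact permutation p was 0.333, the smallest possible. This was the member with the largest positive value, and both vitrified pools were more than 1 cycle below both fresh pools.

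The next smallest p-values belonged to miR-410, miR-434-3p and miR-379, all with less in the vitrified mean. The log2 fold change of miR-410 was −1.83 (SE 1.58) over all pools and −0.29 in the pools numbered 2 and 3. For miR-434-3p it was −1.80 (SE 1.62) and −0.59. For miR-379 it was −1.57 (SE 1.51) and −0.53. All 3 lay closer to 0 in the pools numbered 2 and 3.

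Of the miRNAs opposite Rtl1, 3 of 4 tested had a lower and 1 a higher mean in the vitrified pools, and none passed the test. The vitrified pools had a ΔCt of 9.30 ± 0.59 (SD, n = 2) for miR-127 and the fresh pools one of 9.69 ± 1.0 (SD, n = 2), a log2 fold change of 0.39 (SE 1.25, limma adjusted p = 0.998). For miR-136 the vitrified mean was 15.5 ± 0.78 (SD, n = 3), the fresh mean was 14.8 ± 3.02 (SD, n = 3), and the log2 fold change was −0.63 (SE 1.62, limma adjusted p = 0.998). Over the pools numbered 2 and 3 that of miR-136 was −1.96, with an unadjusted limma p of 0.0752 and an adjusted p of 0.867. The spread of the fresh pools, F1 to F3, was wider than the difference between the group means. For miR-411 and miR-667, the log2 fold changes were −0.70 (SE 1.23) and −0.23 (SE 0.88). In the pools numbered 2 and 3 these fold changes were −0.98 and 0.34.

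In a few members the ΔCt values of the groups did not overlap. With more in vitrified pools there were 2 of 22 members, miR-494 and miR-485-3p, where 10.1% of all assays tested were of this kind. With less in vitrified pools there were 2 of 22, miR-134 and miR-541, against 5.07%. In the pools numbered 2 and 3 there were 3 in each direction, with miR-673 (card B) added to the first and miR-136 to the second, against 18.1% and 10.7% of all assays.

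Pools of the same group also differed from each other. From F2 to F3, the ΔCt fell in 21 of the 22 members, with a median difference of −1.28 cycles. Over all 326 assays determined in these pools 244 were lower in F3, with a median of −0.68. The exception was miR-494, higher by 0.20 cycles. The differences were widest for miR-434-5p (−3.35), miR-410 (−2.91) and miR-337-3p (−2.58). By raw Ct, without U6, 20 of the 22 members were lower in F3 (median −0.93), against 203 of 326 assays (median −0.35).

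In the vitrified group V2 was lower than V3 for 15 of the 22 members (median −0.73), against 236 of 326 assays (median −0.47), a share near that of all assays. All 4 tested members opposite Rtl1 were lower in F3 than in F2 and in V2 than in V3. On the Meg3 side 4 of 4 were lower in F3, and 1 of 4 was lower in V2. The direction of each difference was chosen after the values were seen, and no test was made.

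The embryonic family miR-290 to miR-295 went the other way in both groups. All 8 of its assays with values had a higher ΔCt in F3 than in F2 (median 1.89 cycles) and a higher one in V2 than in V3 (median 2.18). The ranges, from 1.46 to 5.2 and from 1.69 to 4.32 cycles, did not overlap those of the cluster, which ended at 0.20 and 0.90. The Sfmbt2 intron cluster, another large imprinted group, had 6 of 10 assays lower in F3 (median −0.22) and 3 of 10 lower in V2 (median 0.64). At the miRNAs of the Mest, H19, Igf2 and Gnas loci, 1 of 3 was lower in F3 and 2 of 3 in V2.

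**Figure D4:**
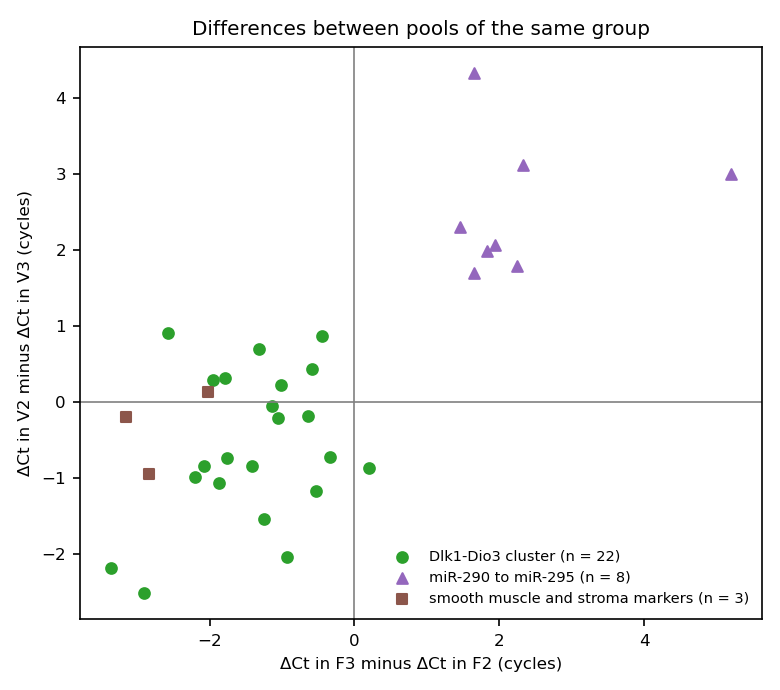
Difference in ΔCt, in cycles, between F3 and F2 (horizontal axis) and between V2 and V3 (vertical axis), 1 point per assay determined in these 4 pools. The 22 members of the cluster (green circles) lie left of 0 except miR-494, the 8 assays of miR-290 to miR-295 (purple triangles) lie in the upper right, and the 3 smooth muscle and stroma assays (brown squares) lie on the left.

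The stroma and striated muscle lists were also lower in F3 than in F2, and the erythroid list was split. Over all assays 74.8% were lower in F3 (median −0.68) and 72.4% were lower in V2 than in V3 (median −0.47). For smooth muscle and stroma, all 3 assays of miR-143 and miR-145 were lower in F3 than in F2 (median −2.84 cycles), and 2 of 3 were lower in V2 than in V3 (median −0.20). All 5 determined assays of the striated muscle list, out of 6 for miR-1, miR-133 and miR-206, were lower in F3 (median −1.74). In V2, 4 of these 5 were lower than in V3 (median −0.79). Of the erythroid list, miR-451, miR-144 and miR-486, 2 assays had values and 1 was lower in F3. The part of such cells in the values of the cluster was not tested.

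Summed over its determined wells and expressed relative to U6 set to 1, the cluster reached 0.000343, 0.00615 and 0.00391 in V1, V2 and V3, and 0.0017, 0.00244 and 0.00599 in F1, F2 and F3. The F1 sum came mostly from a single well, that of miR-673 on card B (ΔCt 9.39). V2 and F3 were the highest pools of their groups, and the groups overlapped. On the same scale, the stroma list ranged from 0.000647 to 0.0896 in vitrified and from 0.000253 to 0.393 in fresh pools, and was highest in V2 and F3 too. As a percentage of the sum over all miRNA assays in the pool, the cluster was nearly equal in V2 (0.0713%) and V3 (0.0691%). It was 0.0463% in F3, 0.0335% in F2 and 0.00677% in F1. V1 was the lowest pool, at 0.00116%, so the groups overlapped on this scale too. On this scale the stroma list was higher in V3 (1.27%) than in V2 (1.04%). The miR-290 to miR-295 family was 0 in V1 and F1, 0.00551 in V2, 0.0252 in V3, 0.021 in F2 and 0.00667 in F3, and so was lower in V2 and F3 than in V3 and F2.

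The neuron list, miR-124 and miR-9, ranged from 0 to 0.0023 in vitrified and from 0 to 0.000448 in fresh pools, and 0 of its 2 assays was determined in V1 or F1. The erythroid list ranged from 0.00226 to 0.042 and from 0.00423 to 0.0291, and the striated muscle list from 0.000207 to 0.00744 and from 0.000118 to 0.0176. The liver miRNA miR-122 was determined only in V3 and F2. Such sums add assays of unknown efficiency and are dominated by the earliest wells.

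The opposite arms marked # and the late-numbered miRNAs of the locus were outside the rule. Of 18 such assays, 8 were determined in at least 1 pool and 2 could be tested, with 0 called. The miR-376b# assay was at 30.73 in V2, 31.53 in V3, 31.61 in F2 and 30.40 in F3 (log2 fold change −0.05, SE 1.40). The miR-1188 assay was at 30.56 in V2, 29.16 in V3, 31.66 in F2 and 31.70 in F3. Its log2 fold change was 1.89 (SE 1.12, limma adjusted p = 0.998), and in the pools numbered 2 and 3 its unadjusted p was 0.0196 (limma, adjusted p = 0.711). Both vitrified pools of miR-1188 were earlier than both fresh pools, as for miR-494. In the pools numbered 2 and 3, 4.91% of all assays tested had an unadjusted limma p under 0.05. The ΔCt values of the groups did not overlap, with more in vitrified pools, in 18.1% of them.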

How the data were processed

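Total RNA of 3 vitrified and 3 fresh pools of blastocysts was measured on TaqMan rodent miRNA cards A and B (set v3.0). The authors deposited raw Ct values from RQ Manager, 1 per assay and pool, not normalized; a Ct behaves as a log2 value of opposite sign. The labels speak of measurement in triplicate, and whether each Ct is a mean is not stated. A second deposited table holds the authors' own signed fold change per assay, a comparison of the groups, and was not used. All columns of Ct values were mapped to samples by name.

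Members and lists were chosen with earlier results of these data known. Wells undetermined or at 40 cycles or later were left out, as the methods describe, and U6 of the same card was subtracted. Assays with 2 determined pools per group were tested with lmFit and eBayes (limma 3.58.1, R 4.3.3). The script was tested on simulated data. Counts and permutation tests used numpy 2.4.6 and pandas 2.3.3 under Python 3.11.15, and plots matplotlib 3.10.9. RefSeq mature sequences were matched by number and arm, 27 assays by the arm in the name. The assay hsa-miR-485-5p was not matched.

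Named with their values were all assays of miR-127, miR-136 and miR-329, members determined in all 6 pools, the 5 with the smallest p, those determined in at least 2 pools of 1 group only, the 10 with the lowest median Ct and miRNAs with 2 assays. Others were chosen after their values were seen.

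Same-numbered pools deviated together from their group means over 122 assays determined in all pools (correlations of 0.80, 0.78 and 0.67 for numbers 1, 2 and 3), although deviations of 3 pools sum to 0. Over the 4 members determined in all pools these correlations were −0.72, −0.91 and −0.86. The numbers come from the sample labels. No value was shared by 2 pools of a group. Alternatives changed the reference, the Ct limit, the treatment of undetermined wells, the filter, the pools, the pairing and the variance model.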

Additional observations from a re-analysis of the deposited data

How the results depend on the processing

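None of 18 other fits called a member or any other assay at an adjusted p under 0.05, the fit with pool number as a block (replicate block) included. With that block 0 of 22 members and 0 of 330 assays were called, the median log2 fold change of the members was −0.21, and no call changed. The median of the members, −0.65, became 0.70 when undetermined wells were set to 40 cycles, where 42 members were tested, and 0.40 with a ceiling of 35 cycles. It lay between −1.67 and 0.05 when 1 pool was left out. The median over all assays tested, −0.05, was 0.55 and 0.41 in those settings of undetermined wells, −0.78 with the small RNA controls, 0.12 with the global mean, −0.35 without a reference and between −0.88 and 1.15 when 1 pool was left out. At an unadjusted p under 0.05 there was 1 member with a ceiling of 35 cycles (miR-329, log2 fold change 2.04, limma adjusted p = 0.997) and 1 in the pools numbered 2 and 3 (miR-494). With that ceiling, the values of miR-329 in V1 and in every fresh pool were the fill of 35 cycles and not measurements. Its fold change and p there rest on that fill. Over all assays, the count at an unadjusted p under 0.05 was between 0 and 16. It was highest in the pools numbered 2 and 3, 10 without V1 and 1 of 490 with the ceiling.

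Over the fold changes of 9 named members under the alternatives, 132 kept their direction and 11 turned. With the small RNA controls as reference miR-379 was 0.11 and miR-127 −0.43. With undetermined wells at 40 cycles miR-134 was 0.75, miR-434-3p 1.79 and miR-379 2.06, and with the ceiling of 35 cycles miR-434-3p was 0.12 and miR-379 0.40. In the pools numbered 2 and 3 miR-667 was 0.34. With 1 pool left out, miR-667 ranged from −0.67 to 0.29 (turned without V1), miR-411 from −1.53 to 0.26 and miR-136 from −2.29 to 0.66 (both turned without F3). Setting undetermined wells to 40 or 35 cycles counts each as low, and F1 had the most of them. The cause of the turned directions was not tested. Undetermined wells and 3 pools per group limit the precision, and 22 of the 76 members could be tested.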
